A study of Homo sapiens with 6 samples.

Results

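The kinesin genes were the 34 rows, of 21151 in the table, whose symbol is KIF or KIFC followed by a number and at most 1 letter from A to C. They were divided by function into 12 mitotic kinesins and 22 others. The samples were human dermal fibroblasts of the CCD-1064Sk line, a fibroblast line from skin, carrying short-hairpin RNAs against the zinc-finger gene ZNF469 (shZNF469, labelled as a ZNF469 knockdown, 3 libraries) or the control of that knockdown (named shControl and labelled as wild type, 3 libraries). All 6 libraries came from this single fibroblast line. The study asked how ZNF469 affects the production of extracellular matrix. The libraries of a group are labelled as technical replicates, and the p-values below therefore speak to the spread among these libraries alone. The sources used here do not give the number of different hairpins.

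Kinesins are motor proteins that turn ATP hydrolysis into movement along microtubules or into the disassembly of microtubule ends. A first set builds the mitotic spindle, moves chromosomes and divides the cell, and its genes are transcribed mainly in the G2 and M phases of dividing cells. Among the others are motors that carry vesicles, organelles, RNA and ciliary components in dividing and resting cells alike. In fibroblasts these carriers serve, among other cargoes, the secretory traffic on which matrix production depends. The others also include KIF2A and KIF24, which act on microtubules themselves, and the hedgehog pathway regulator KIF7.

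Total counts were 41318439 to 48298264 in the shZNF469 libraries and 35417366 to 46911355 in the shControl libraries. The targeted gene, ZNF469, had 21.4, 18.3 and 18.5 CPM in the shZNF469 libraries, against 39.7, 46.2 and 39.9 CPM in the shControl libraries (log2 change -1.12 with SE 0.09, adjusted p = 0.000873). CPM are counts scaled to the TMM-adjusted library total, and a gene passed at an edgeR adjusted p under 0.05. Along principal component 1 of the log2 CPM, shControl replicate 2 lay at -10.2, between the other control libraries (-55.8 and -52.0) and the knockdown libraries (36.7 to 42.2). All 9 fibroblast markers had values, with a summed TPM of 23952 to 25368 in shZNF469 and 30912 to 33304 in shControl. The collagen genes COL1A1, COL1A2 and COL3A1 fell and VIM rose (adjusted p = 0.0146), the other 5 did not pass, and the median log2 fold change of the 9 was 0.12. Of the markers of other cell types, 2 of 6 epithelial, 1 of 4 endothelial, 2 of 5 leukocyte, 1 of 4 melanocyte and 2 of 5 neural genes had a value. The melanocyte gene with a value, PMEL, rose (27.8 to 32.2 TPM in shZNF469 and 15.1 to 15.6 TPM in shControl, adjusted p = 0.000525). The epithelial genes with a value summed to 18.5 to 19.7 TPM in shZNF469 and 24.9 to 28.8 TPM in shControl, and KRT10 among them fell (adjusted p = 0.0190). The leukocyte genes with a value, CD68 and CD14, summed to 204 to 245 TPM in shZNF469 and 172 to 195 TPM in shControl. The neural genes with a value, TUBB3 and MAP2, summed to 112 to 128 TPM in shZNF469 and 108 to 114 TPM in shControl. None of these leukocyte and neural genes passed. The part of any of these markers in the values below was not tested.

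The first bases before and after the start of 6 of these genes are shown, because most mitotic members hold the same pair of short elements there and few of the others do. The cell cycle homology region (CHR), searched as TTTGAA or TTCGAA (the second reads alike on both strands and was counted once), is bound by the MuvB complexes that time late cell cycle transcription. The CCAAT box, searched as CCAAT, is bound by NF-Y. Both were searched on both strands of windows of 300 bases (250 before the annotated start and 50 from it; RefSeq sequences, GRCh38.p14). Each sequence reads in the direction of its gene, and capitals mark the CHR and CCAAT letters (ATTGG and TTCAAA are the same elements on the opposite strand). KIFC1 (chr6:33391573-33391872, + strand), KIF18B (chr17:44947724-44948023, - strand), KIF4A (chrX:70289854-70290153, + strand) and KIF23 (chr15:69414099-69414398, + strand) hold both elements. KIF20A (chr5:138178862-138179161, + strand) is a mitotic gene with CCAAT boxes alone, and KIF5B (chr10:32056376-32056675, - strand) is a transport gene with both.
KIFC1: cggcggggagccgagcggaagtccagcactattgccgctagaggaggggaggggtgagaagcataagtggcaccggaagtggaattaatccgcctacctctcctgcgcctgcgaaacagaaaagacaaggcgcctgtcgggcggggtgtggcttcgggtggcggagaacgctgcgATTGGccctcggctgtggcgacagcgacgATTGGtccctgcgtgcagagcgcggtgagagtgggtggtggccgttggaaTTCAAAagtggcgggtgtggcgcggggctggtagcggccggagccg
KIF18B: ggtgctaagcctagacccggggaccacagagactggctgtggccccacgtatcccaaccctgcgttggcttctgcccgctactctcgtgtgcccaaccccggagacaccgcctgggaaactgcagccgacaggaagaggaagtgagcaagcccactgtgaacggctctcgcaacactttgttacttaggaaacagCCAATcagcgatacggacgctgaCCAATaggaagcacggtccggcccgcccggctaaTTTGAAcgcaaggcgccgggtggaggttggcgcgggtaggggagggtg
KIF4A: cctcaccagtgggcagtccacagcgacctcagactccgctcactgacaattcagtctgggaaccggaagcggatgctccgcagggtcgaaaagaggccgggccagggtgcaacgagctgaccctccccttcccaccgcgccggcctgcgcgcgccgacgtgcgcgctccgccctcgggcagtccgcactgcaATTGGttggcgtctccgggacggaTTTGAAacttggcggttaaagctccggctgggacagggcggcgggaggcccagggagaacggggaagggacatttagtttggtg
KIF23: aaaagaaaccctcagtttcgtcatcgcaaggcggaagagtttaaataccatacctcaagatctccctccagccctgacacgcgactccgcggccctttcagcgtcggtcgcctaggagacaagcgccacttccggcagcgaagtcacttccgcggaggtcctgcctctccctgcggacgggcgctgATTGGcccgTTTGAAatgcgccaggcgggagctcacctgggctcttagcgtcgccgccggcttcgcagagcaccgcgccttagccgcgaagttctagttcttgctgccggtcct
KIF20A: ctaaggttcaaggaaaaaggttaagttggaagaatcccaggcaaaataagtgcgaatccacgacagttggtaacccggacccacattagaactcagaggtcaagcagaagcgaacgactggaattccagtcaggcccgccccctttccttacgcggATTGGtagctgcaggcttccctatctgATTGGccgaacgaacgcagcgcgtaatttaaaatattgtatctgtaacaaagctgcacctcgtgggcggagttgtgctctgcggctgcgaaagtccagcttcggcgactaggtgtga
KIF5B: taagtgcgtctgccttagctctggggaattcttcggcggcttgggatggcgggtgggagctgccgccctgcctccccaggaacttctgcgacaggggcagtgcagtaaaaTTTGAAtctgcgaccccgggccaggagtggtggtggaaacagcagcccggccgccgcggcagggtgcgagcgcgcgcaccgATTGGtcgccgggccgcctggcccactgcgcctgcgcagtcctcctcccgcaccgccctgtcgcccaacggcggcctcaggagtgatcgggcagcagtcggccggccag

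In KIFC1 the CHR began 4 bases after the annotated start used for its window. It lay behind a pair of CCAAT boxes that began 46 and 75 bases before that start. This start lies inside the listed span of the gene, which begins at 33391461, before the first base of the window (33391573). KIF18B had the same order of elements on the other strand (the strand of the gene, where those of KIFC1 are on the opposite one), with its CHR 2 bases after the first base and its CCAAT boxes 32 and 55 bases before it. A window was listed for all 12 mitotic kinesins and for 16 of the 22 others. KIF5A, KIF13B, KIF26B, KIF27, KIFC2 and KIFC3 were not matched. A CHR was found in 10 of the 12 mitotic genes (83.3%) and in 2 of the 16 others (12.5%), and in 15.3% of the 11251 tested genes with a window. CCAAT boxes were found in 10 mitotic genes (83.3%), in 5 of the others (31.25%) and in 42.5% of tested genes. Both together were found in 9 mitotic genes, in 2 others and in 6.36% of tested genes. The mitotic genes without a CHR were KIF20A and KIF2C, and those without a CCAAT box were KIF15 and KIF2C. The 2 other kinesins that hold both were KIF5B, whose CHR lay 140 bases before the start, and KIF24, whose TTCGAA began 1 base after the first base of the gene. No CHR overlapped a CCAAT box in these windows. These matches describe letters and were not tested for binding.

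**Figure D1:**
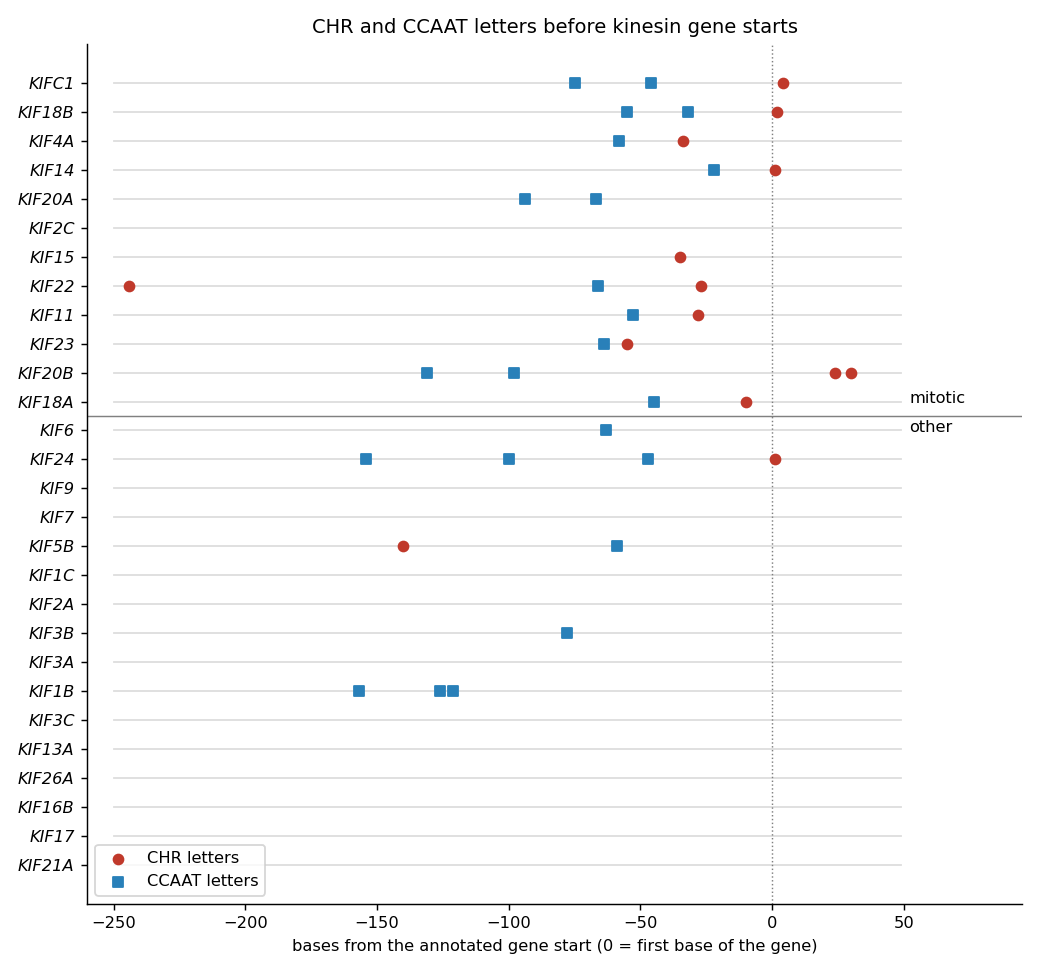
Positions of CHR letters (red circles, TTTGAA or TTCGAA) and CCAAT letters (blue squares) on either strand, in bases from the annotated start (x axis), for the 12 mitotic kinesins (above the line) and the 16 others with a window (below it). Grey lines span the searched window of each gene, and sites of genes with several annotated starts are drawn on 1 line. CHR letters appear in 10 mitotic genes and in KIF24 and KIF5B among the others.

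The mitotic kinesins were lower in shZNF469 fibroblasts. Of the 12 members, all tested, 11 fell and 0 rose, and their median log2 fold change was -1.10, a 2.15-fold lower level. Over all 16353 tested genes, 5.34% were called lower and the median was 0.00. The groups did not overlap for any of the 12, each shZNF469 library lying below each shControl library, which holds in that direction for 15.7% of tested genes. Mitotic members ranged from -1.67 for KIFC1 to -0.62 for KIF18A, the member that missed the threshold. Without shControl replicate 2, the library that stood apart, 11 of the 12 still passed with a median of -1.05. In bulk RNA, fewer dividing cells and less RNA per dividing cell cannot be told apart. The proliferation marker MKI67 was lower in the same libraries (14.8 ± 0.541 CPM in shZNF469 and 33.2 ± 0.689 CPM in shControl, SD, n = 3 each, as for all means below; adjusted p = 0.000159), a gene named after its values were seen, and its part in the values of the kinesins was not tested.

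**Figure D2:**
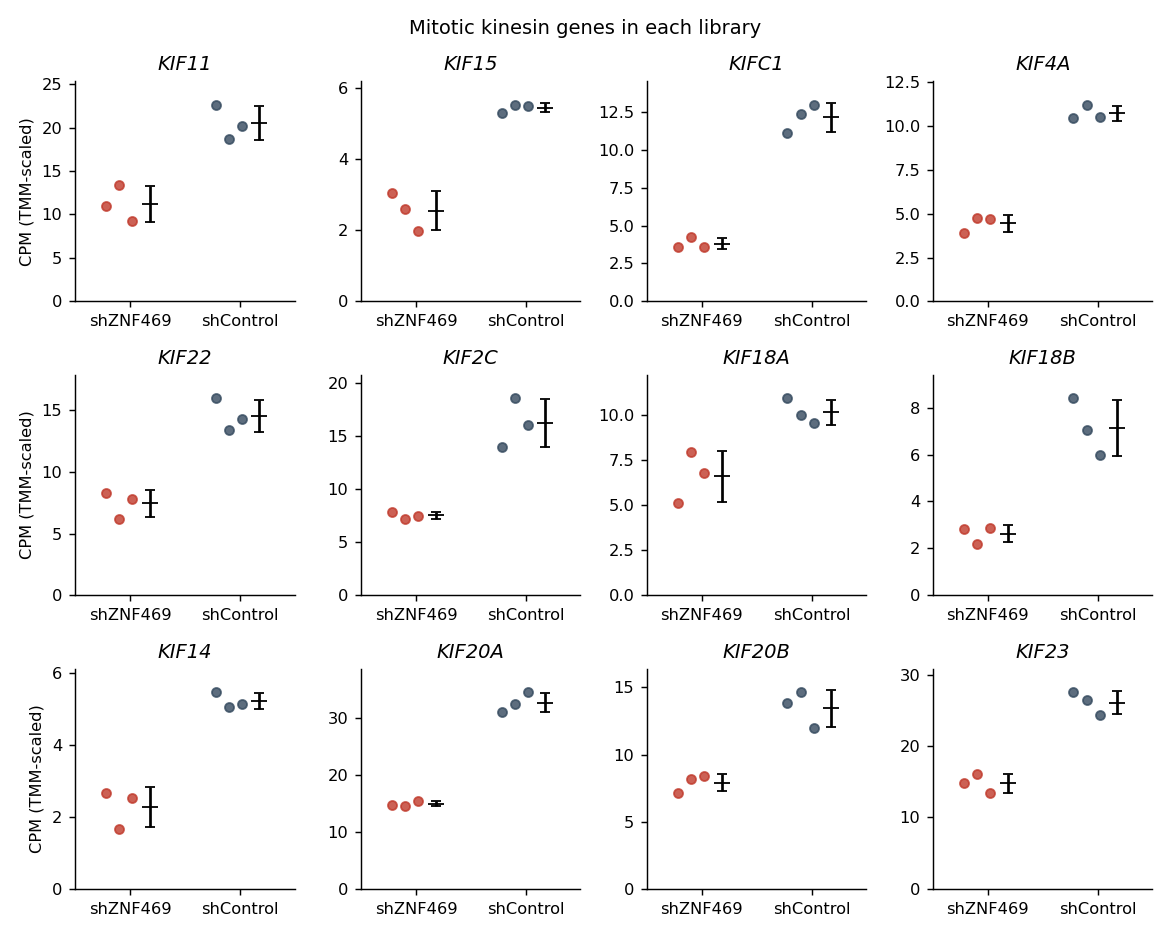
CPM (y axis, from 0) of the 12 mitotic kinesins in the 3 shZNF469 libraries (red, left) and the 3 shControl libraries (dark, right), with mean and SD beside the points. In each of the 12 panels the highest shZNF469 library lies below the lowest shControl library.

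Spindle assembly kinesins fell in all 3 cases. KIF11 (ENSG00000138160, chromosome 10, 92593130 to 92655395), the plus-end motor of family 5 that pushes spindle poles apart, had 10.97, 13.4 and 9.25 CPM in the shZNF469 libraries, against 22.7, 18.7 and 20.2 CPM in the shControl libraries (1.83-fold lower, log2 change -0.87 with SE 0.14, adjusted p = 0.0110). KIF15 (ENSG00000163808, chromosome 3, 44761794 to 44868687), of family 12, which helps to keep the spindle bipolar, had 3.06, 2.60 and 1.97 CPM in the shZNF469 libraries, against 5.31, 5.54 and 5.51 CPM in the shControl libraries (log2 change -1.10 with SE 0.18, adjusted p = 0.0109). In both genes the groups were apart by more than the spread of either. KIFC1 (ENSG00000237649, chromosome 6, 33391461 to 33409896), a minus-end motor of family 14 that focuses spindle poles and clusters extra centrosomes, had 3.62, 4.24 and 3.59 CPM in the shZNF469 libraries, against 11.1, 12.4 and 12.99 CPM in the shControl libraries. This was the largest fall of any kinesin tested, 3.18-fold (log2 change -1.67 with SE 0.12, adjusted p = 0.000560), and left 31.5% of the control level. A processed pseudogene on the other strand, RPL12P1, shares 12.7% of the exon bases of KIFC1. The call of KIF11 was lost without shControl replicate 1 (adjusted p = 0.0586) or shZNF469 replicate 1 (adjusted p = 0.0638), and that of KIF15 without shControl replicate 1 (adjusted p = 0.0506) and with limma on log2(TPM + 1) or log2(TPM + 0.1) (adjusted p = 0.0706 and 0.0918).

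Both kinesins that ride on chromosome arms fell. KIF4A (ENSG00000090889, chromosome X, 70290104 to 70420886), which shapes chromosomes with condensin and later stops microtubule growth in the spindle midzone, had 3.90, 4.74 and 4.72 CPM in the shZNF469 libraries, against 10.4, 11.2 and 10.53 CPM in the shControl libraries (2.41-fold lower, log2 change -1.27 with SE 0.11, adjusted p = 0.00111). A near-identical copy, KIF4B, exists in the human genome, and how reads that match both were counted is not given in the sources used here. KIF22 (ENSG00000079616, chromosome 16, 29790751 to 29805385), which pushes chromosome arms away from the poles, had 8.33, 6.21 and 7.83 CPM in the shZNF469 libraries, against 15.97, 13.4 and 14.3 CPM in the shControl libraries (1.95-fold lower, log2 change -0.96 with SE 0.13, adjusted p = 0.00577). An annotated antisense gene shares 13.01% of the exon bases of KIF22, and without a stated strand setting its reads cannot be told apart from those of KIF22.

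At kinetochores and microtubule ends, 2 of 3 members fell. KIF2C (ENSG00000142945, chromosome 1, 44739837 to 44767767), which disassembles microtubule ends and so corrects wrong attachments, had 7.84, 7.16 and 7.48 CPM in the shZNF469 libraries, against 13.98, 18.5 and 16.01 CPM in the shControl libraries (2.16-fold lower, log2 change -1.11 with SE 0.12, adjusted p = 0.00222). KIF18B (ENSG00000186185, chromosome 17, 44924711 to 44947773), which shortens astral microtubules, had 2.81, 2.20 and 2.88 CPM in the shZNF469 libraries, against 8.39, 7.02 and 5.99 CPM in the shControl libraries (2.72-fold lower, log2 change -1.44 with SE 0.17, adjusted p = 0.00372). Its relative KIF18A (ENSG00000121621, chromosome 11, 28020619 to 28108156), which damps chromosome oscillations on the metaphase plate, had 5.12, 7.95 and 6.79 CPM in the shZNF469 libraries, against 10.9, 10.02 and 9.57 CPM in the shControl libraries. The groups did not overlap, but shZNF469 replicate 2 lay closest to the controls and the gene did not pass (log2 change -0.62 with SE 0.16, adjusted p = 0.0579). It passed without that library (adjusted p = 0.0339) and with DESeq2 (adjusted p = 0.00165), and in the other 11 alternative settings its adjusted p was 0.0562 to 0.187. Within libraries, the ratio of KIF18B to KIF18A counts was 0.548, 0.277 and 0.424 in shZNF469 and 0.767, 0.701 and 0.626 in shControl, a log2 difference of -0.80 with no overlap. The exact two-sided permutation p was 0.1, the smallest that 3 against 3 can give, so this pair, chosen after its values were seen, could not pass a threshold of 0.05.

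All 4 kinesins of the spindle midzone and cytokinesis fell. KIF20A (ENSG00000112984, chromosome 5, 138179112 to 138187723), which brings the chromosomal passenger complex to the midzone, was the mitotic kinesin with the highest TPM in both groups, and had 14.7, 14.5 and 15.4 CPM in the shZNF469 libraries, against 31.05, 32.3 and 34.4 CPM in the shControl libraries (2.19-fold lower, log2 change -1.13 with SE 0.06, adjusted p = 0.000297). Its relative KIF20B (ENSG00000138182, chromosome 10, 89701590 to 89774934), which acts late in abscission, had 7.18, 8.15 and 8.44 CPM in the shZNF469 libraries, against 13.8, 14.6 and 11.95 CPM in the shControl libraries (1.70-fold lower, log2 change -0.77 with SE 0.11, adjusted p = 0.00766). The KIF20A values were tight within each group, with the highest knockdown library at 15.4 CPM and the lowest control at 31.05 CPM. KIF23 (ENSG00000137807, chromosome 15, 69414349 to 69448427), the motor subunit of centralspindlin, which bundles midzone microtubules, had 14.8, 16.1 and 13.5 CPM in the shZNF469 libraries, against 27.5, 26.4 and 24.4 CPM in the shControl libraries (1.76-fold lower, log2 change -0.82 with SE 0.09, adjusted p = 0.00228). KIF14 (ENSG00000118193, chromosome 1, 200551497 to 200620751), which recruits citron kinase to the midbody, was the least abundant mitotic kinesin per length, at 0.715 ± 0.149 TPM in shZNF469 and 1.70 ± 0.121 TPM in shControl. It had 2.68, 1.65 and 2.53 CPM in the shZNF469 libraries, against 5.47, 5.05 and 5.16 CPM in the shControl libraries (2.29-fold lower, log2 change -1.19 with SE 0.20, adjusted p = 0.0120). Its call was lost without shControl replicate 1 (adjusted p = 0.0593) and with limma on log2(TPM + 1) or log2(TPM + 0.1) (adjusted p = 0.0641 and 0.0842).

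Mitotic kinesins that escape the name rule were looked up separately. CENPE (family 7), the kinetochore motor that moves chromosomes to the metaphase plate, had 10.7, 13.4 and 10.4 CPM in the shZNF469 libraries, against 15.7, 16.2 and 17.1 CPM in the shControl libraries (1.42-fold lower, log2 change -0.51 with SE 0.11, adjusted p = 0.0322). That call was lost in 8 of 13 alternative settings, with adjusted p up to 0.166. STARD9 (family 3), which acts at the centrosomes of dividing cells and was added after its values were seen, went the other way, with 17.6, 17.4 and 15.7 CPM in the shZNF469 libraries, against 12.1, 13.2 and 10.8 CPM in the shControl libraries (1.40-fold higher, log2 change 0.49 with SE 0.10, adjusted p = 0.0223), a call lost in 6 of 13 settings with adjusted p up to 0.286. The kinesins with a role in division thus did not all move in 1 direction.

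None of the 22 other kinesins passed in either direction with edgeR (0 lower, 0 higher), where 5.34% and 4.56% of all tested genes did. Their median log2 fold change was 0.11, and 15 of them had an estimate above 0. At an unadjusted p under 0.05 there were 2 lower and 6 higher, against 12.3% and 12.1% of all tested genes. DESeq2 called 2 lower (KIF24 and KIF26B) and 6 higher (KIF3C, KIF13A, KIF13B, KIF16B, KIF17 and KIFC2), where it called 11.3% of its tested genes lower and 11.3% higher. The groups did not overlap for 3 in the lower direction and 5 in the higher, against 15.7% and 15.6% of tested genes.

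**Figure D3:**
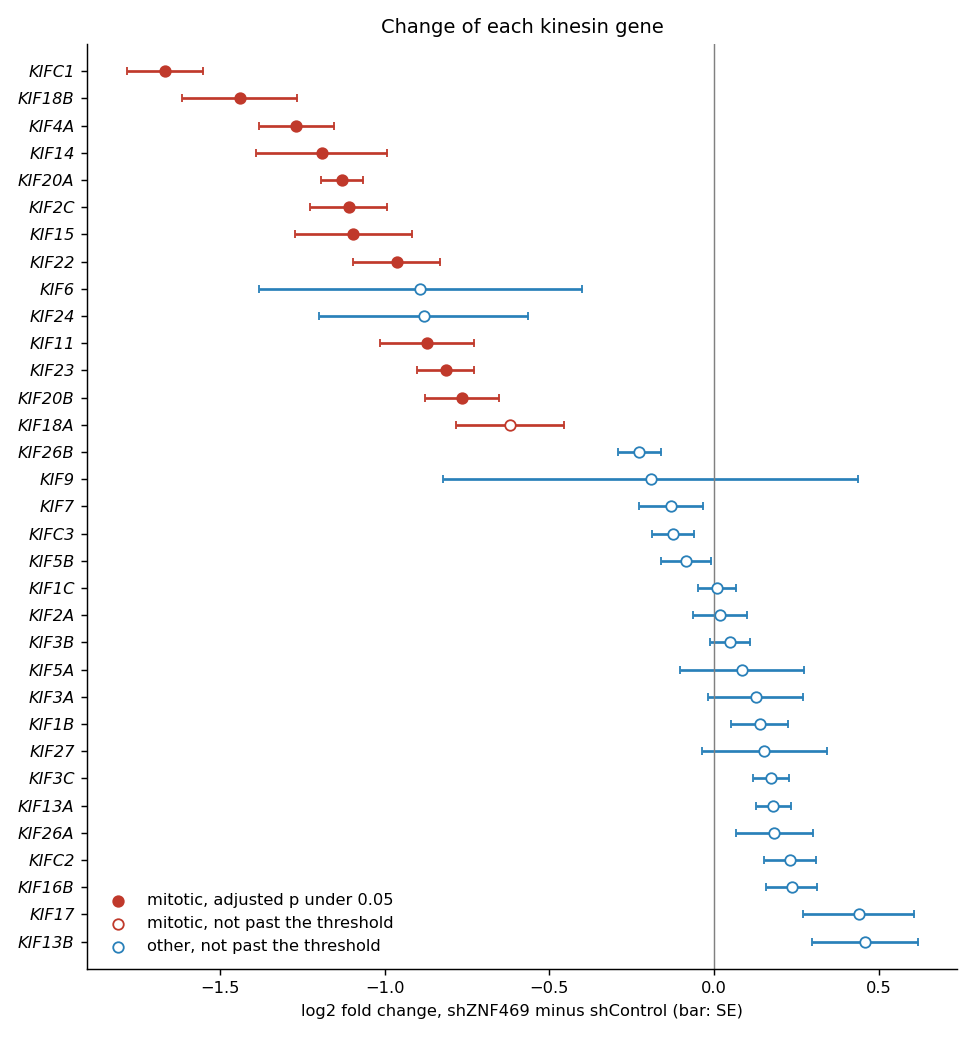
Log2 fold change (x axis, shZNF469 minus shControl) with its SE for 33 kinesin genes, mitotic in red and others in blue, filled where the adjusted p is under 0.05. KIF21A, listed at 0 in 2 control libraries, is left out. The 11 filled points are all mitotic and lie between -1.67 and -0.77, and among the others only KIF6 and KIF24 have estimates in that range.

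The abundant cargo motors of the fibroblasts showed small differences. KIF5B, the ubiquitous heavy chain of kinesin family 1, had 156, 178 and 151 CPM in the shZNF469 libraries, against 179, 172 and 163 CPM in the shControl libraries (adjusted p = 0.581). KIF1C, a vesicle motor of family 3, had 249.9, 225 and 225 CPM in the shZNF469 libraries, against 230.1, 235 and 230.3 CPM in the shControl libraries (log2 fold change 0.01, SE 0.06, adjusted p = 0.947). Per length these were the most abundant kinesins in both groups, KIF1C at 67.9 ± 5.70 TPM in shZNF469 and 68.5 ± 3.76 TPM in shControl and KIF5B at 63.7 ± 9.51 TPM in shZNF469 and 68.3 ± 6.30 TPM in shControl (SD, n = 3), and the spread within groups exceeded the difference between them in both genes. The neuronal heavy chain KIF5A was low, at 4.17 ± 0.232 CPM in shZNF469 and 3.93 ± 0.953 CPM in shControl.

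The 5 vesicle motors of family 3 among the name-rule members had estimates above 0, and none passed. KIF13A, which carries endosomes, had 101, 101 and 94.4 CPM in the shZNF469 libraries, against 87.4, 88.8 and 85.6 CPM in the shControl libraries, without overlap (1.13-fold, log2 change 0.18 with SE 0.05, adjusted p = 0.0797). KIF13B and KIF16B, motors of membrane traffic and early endosomes, likewise did not overlap, at 6.93 ± 0.694 CPM in shZNF469 and 5.05 ± 0.976 CPM in shControl and at 26.6 ± 2.33 CPM in shZNF469 and 22.6 ± 0.880 CPM in shControl in that order. KIF1B, a carrier of mitochondria and of synaptic vesicle precursors in neurons, stood at 75.8 ± 7.95 CPM in shZNF469 and 68.9 ± 4.01 CPM in shControl, with overlapping groups. Estimated differences of these 5 stayed at or under 1.37-fold.

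Motors of family 2, whose heterotrimers carry cargo in cilia and in the cytoplasm, did not pass either. KIF3A averaged 14.4 ± 2.53 CPM in shZNF469 and 13.1 ± 1.505 CPM in shControl and KIF3B averaged 58.8 ± 3.72 CPM in shZNF469 and 56.9 ± 1.42 CPM in shControl, with overlap in both. KIF3C had 43.8, 40.3 and 42.99 CPM in the shZNF469 libraries, against 37.02, 37.9 and 37.8 CPM in the shControl libraries, without overlap (1.13-fold, log2 change 0.17 with SE 0.05, adjusted p = 0.0944). KIF17, an accessory ciliary motor, varied in the knockdown, with 14.97, 9.26 and 12.2 CPM in the shZNF469 libraries, against 9.01, 9.27 and 8.55 CPM in the shControl libraries (adjusted p = 0.162). Both passed without shZNF469 replicate 2 (adjusted p = 0.0411 for KIF3C and 0.0291 for KIF17). In KIF17 that library lay just below the highest control. The hedgehog pathway regulator KIF7, of family 4, averaged 23.3 ± 2.75 CPM in shZNF469 and 25.6 ± 1.63 CPM in shControl, and its paralogue KIF27 averaged 4.56 ± 0.684 CPM in shZNF469 and 4.11 ± 0.892 CPM in shControl, with overlapping groups.

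The remaining kinesins outside the mitotic set gave a mixed picture, and none of them passed. KIF26B, of family 11, had 91.3, 89.7 and 82.02 CPM in the shZNF469 libraries, against 105, 106 and 96.96 CPM in the shControl libraries, without overlap (1.17-fold lower, log2 change -0.23 with SE 0.07, adjusted p = 0.0741), whereas its paralogue KIF26A averaged 9.47 ± 0.813 CPM in shZNF469 and 8.34 ± 0.922 CPM in shControl. KIF24, a relative of KIF2C that remodels centriolar microtubules and restrains cilium assembly, had 0.943, 1.05 and 1.16 CPM in the shZNF469 libraries, against 1.29, 2.40 and 2.11 CPM in the shControl libraries (log2 change -0.88 with SE 0.32, adjusted p = 0.138). Its estimate was close to that of KIF11, but it rests on 44 to 113 counts a library. KIF2A, which also disassembles microtubule ends and works in dividing cells and in neurons, averaged 51.1 ± 5.75 CPM in shZNF469 and 50.5 ± 0.425 CPM in shControl, and shares 8.97% of its exon bases with IPO11 on the same strand. KIFC3 averaged 57.9 ± 1.09 CPM in shZNF469 and 63.1 ± 4.61 CPM in shControl and KIFC2 averaged 18.4 ± 0.462 CPM in shZNF469 and 15.6 ± 1.29 CPM in shControl, with overlap in the first only. The remaining members had low counts. KIF6 and KIF9, linked to motile cilia, averaged 1.15 ± 0.631 CPM in shZNF469 and 2.14 ± 0.529 CPM in shControl and 1.03 ± 0.572 CPM in shZNF469 and 1.17 ± 0.618 CPM in shControl in that order. KIF21A had 56, 75 and 81 counts in shZNF469 and 0, 66 and 0 counts in shControl (adjusted p = 0.558, and 0.0149 without shControl replicate 2, the control with counts). No fold is given for it. Its level in shControl replicate 2 was 0.502 TPM, and the lowest TPM above 0 in shControl replicates 1 and 3 was 0.456 and 0.399. Genes on the other strand share 17.8% of the exon bases of KIFC2 (FOXH1), 14.9% of KIF9 (KIF9-AS1) and 11.8% of KIF7 (TICRR).

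Within-library ratios, which do not depend on scaling, set a mitotic kinesin against a relative of its own family. The ratio of KIFC1 to KIFC3 counts was 0.0614, 0.0732 and 0.0633 in shZNF469 and 0.167, 0.190 and 0.225 in shControl (log2 difference -1.55). For KIF2C to KIF2A it was 0.164, 0.124 and 0.157 in shZNF469 and 0.275, 0.370 and 0.317 in shControl (log2 difference -1.11). The same was seen in family 3, where KIF14 to KIF1B gave 0.0361, 0.0196 and 0.0369 in shZNF469 and 0.0750, 0.0735 and 0.0795 in shControl (log2 difference -1.36). In each of these families the mitotic member was lower relative to its relative in all 3 knockdown libraries. The pair of KIF4A and KIF21A could not be computed, since KIF21A is listed at 0 in 2 libraries, and KIF4A to KIF7, added after the data were seen, gave a log2 difference of -1.14. KIF20A to KIF20B, a pair of mitotic members also added later, differed by -0.36. The exact permutation p was 0.1 for each of the 6 pairs computed, and 0.1 after Benjamini-Hochberg adjustment over them, the smallest the design allows.

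The kinesin pool thus had another makeup in the knockdown. The summed TPM of the 12 mitotic kinesins was 55.9, 60.9 and 51.5 in shZNF469 and 122, 119 and 111 in shControl. That of the other 22 was 384, 413 and 343 in shZNF469 and 389, 391 and 347 in shControl, with overlap. Mitotic members accounted for 12.9 ± 0.183% of kinesin TPM in shZNF469 and 23.8 ± 0.461% in shControl (SD, n = 3). In the order of kinesins by TPM, KIF20A stood at rank 13 of 34 in shZNF469 and at rank 5 in shControl, and KIFC1 at rank 21 in shZNF469 and at rank 15 in shControl. The first 4 ranks were held by KIF1C, KIF5B, KIFC3 and KIF13A in both groups.

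**Figure D4:**
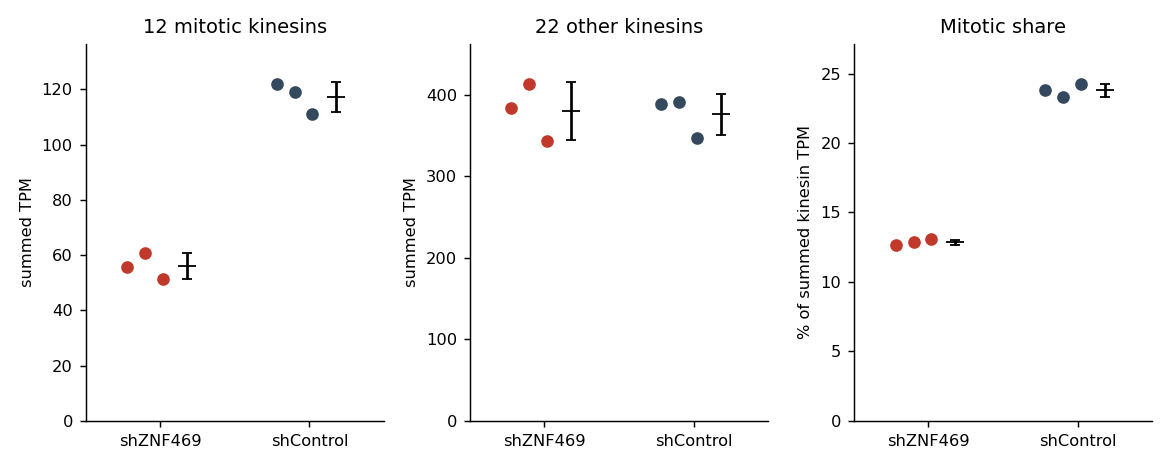
Summed TPM of the 12 mitotic kinesins (left), of the 22 others (middle) and the mitotic share of the kinesin TPM in percent (right) in each shZNF469 library (red) and shControl library (dark), with mean and SD beside the points. The mitotic sum lies between 51.5 and 60.9 TPM in shZNF469 and between 111 and 122 TPM in shControl, while the sums of the others overlap.

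Genes that work with mitotic kinesins were lower as well. Of 26 such genes, all tested, 20 fell and 1 rose, with a median log2 fold change of -0.98 (all genes: 5.34% lower, 4.56% higher, median 0.00). SPAG5, a spindle protein, averaged 8.26 ± 0.353 CPM in shZNF469 and 18.6 ± 0.485 CPM in shControl (adjusted p = 0.000487). TPX2, which targets Aurora A and KIF11 to spindle microtubules, averaged 24.2 ± 0.611 CPM in shZNF469 and 41.98 ± 0.755 CPM in shControl (adjusted p = 0.000492). CDCA8, the chromosomal passenger subunit borealin, was 2.60-fold lower (adjusted p = 0.000504), and ANLN, the cytokinetic scaffold anillin, 2.28-fold lower (adjusted p = 0.000601). Partners of single motors, and the members that did not pass, are named after their values were seen. PRC1, which recruits KIF4A to the midzone, was 1.85-fold lower, and RACGAP1, the partner of KIF23 in centralspindlin, 1.45-fold lower (adjusted p = 0.00660 and 0.00214). CIT, the citron kinase recruited by KIF14, did not pass and its groups overlapped (log2 fold change -0.11, adjusted p = 0.600). NUSAP1, MAPRE1, CKAP5 and MAPRE3 did not pass either, with log2 fold changes of -0.54, -0.21, 0.06 and 0.15. NUMA1, a spindle pole protein that is in the nucleus of resting cells too, was the member that rose and is named for that after its values were seen (1.24-fold, adjusted p = 0.0218), a call that became 0 higher in the fits that left out any shControl library or shZNF469 replicate 1 and with limma on the TPM.

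Regulators of cell cycle promoters, among them those that bind the elements shown above, were divided. Of 23 DREAM, MuvB, E2F and NF-Y genes, 6 fell and 1 rose, with a median log2 fold change of -0.23, where 5.34% of all tested genes fell and 4.56% rose. The 1 higher gene is thus near the share of all genes. MYBL2, the MuvB partner of S and G2 phase, had 2.83, 1.71 and 1.99 CPM in the shZNF469 libraries, against 12.1, 12.7 and 11.8 CPM in the shControl libraries (5.59-fold lower, adjusted p = 0.000638). FOXM1, E2F7, LIN54, NFYA, NFYB and NFYC are named after their values were seen. FOXM1, which joins MuvB in G2, was 1.62-fold lower (adjusted p = 0.0100). E2F1 was 3.75-fold lower (adjusted p = 0.000675), E2F7 1.92-fold lower (adjusted p = 0.0283) and the E2F partner TFDP1 1.35-fold lower (adjusted p = 0.00300). E2F2, which also passed (adjusted p = 0.00907), was listed at 0 in all shZNF469 libraries and had 38, 40 and 41 counts in shControl, at 0.487, 0.389 and 0.461 TPM. The lowest TPM above 0 was 0.333 to 0.360 in the shZNF469 libraries, so a listed 0 may stand for any level below that. NFYA, a subunit of the CCAAT-binding factor, was 1.23-fold higher (adjusted p = 0.0415). That call was lost without a filter on low counts, with limma on the TPM and with the replicate number as a block. It was also lost in each fit that left out a library other than shZNF469 replicate 3. The other NF-Y subunits, NFYB and NFYC, had estimates below 0 and did not pass (log2 fold changes -0.22 and -0.14, adjusted p = 0.0971 and 0.461). The MuvB gene LIN54 did not pass either (log2 fold change -0.23, adjusted p = 0.0546). Without shControl replicate 1, 3 genes of the list were lower.

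Genes that serve transport kinesins and their counterpart dynein had medians near that of all genes, and their few calls are to be read against the 5.34% lower and 4.56% higher of all tested genes. Of 22 light chains, adaptors and cargo receptors tested (24 listed), 2 rose and 0 fell (median log2 fold change 0.03). MAPK8IP3, an adaptor that links kinesin and dynein to cargo, averaged 59.7 ± 4.34 CPM in shZNF469 and 40.8 ± 3.03 CPM in shControl (1.46-fold higher, adjusted p = 0.00646), and PLEKHM2, which couples kinesin to lysosomes, 217 ± 13 CPM in shZNF469 and 167 ± 1.34 CPM in shControl (1.30-fold higher, adjusted p = 0.00873). SYNE2 and FEZ1 had log2 fold changes of 0.50 and 0.19 and did not pass (adjusted p = 0.0607 and 0.0785). Left out in turn, the libraries gave 1 to 3 higher, with 1 without shControl replicate 1. Of 25 dynein and dynactin genes tested (28 listed), 1 rose and 1 fell (median 0.00), the heavy chain DYNC1H1 at 501 ± 16.9 CPM in shZNF469 and 422 ± 11.3 CPM in shControl (1.19-fold higher, adjusted p = 0.0191) and the light chain DYNLT1 at 32.99 ± 4.07 CPM in shZNF469 and 46.9 ± 4.81 CPM in shControl (1.42-fold lower, adjusted p = 0.0287). The deposited TPM of DYNC1H1 went the other way, at 100.1 ± 2.37 in shZNF469 and 117.8 ± 14.3 in shControl, with overlap. ACTR1A and BICD1 had log2 fold changes of -0.20 and -0.30 and did not pass (adjusted p = 0.0639 and 0.145). Of 26 intraflagellar transport and hedgehog genes, 1 rose and 0 fell (median 0.00), WDR19, a subunit of the retrograde transport complex, by 1.28-fold (adjusted p = 0.0141), while IFT140, PTCH1 and GLI3, with log2 fold changes of 0.21, 0.39 and 0.15, did not pass (adjusted p = 0.0903, 0.154 and 0.190). The call of DYNLT1 was lost in each fit that left out a library other than shZNF469 replicate 3, that of DYNC1H1 in those that left out a control library or shZNF469 replicate 1, and that of WDR19 in those that left out shZNF469 replicate 1 or shControl replicate 2 or 3, each leaving 0.

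**Figure D5:**
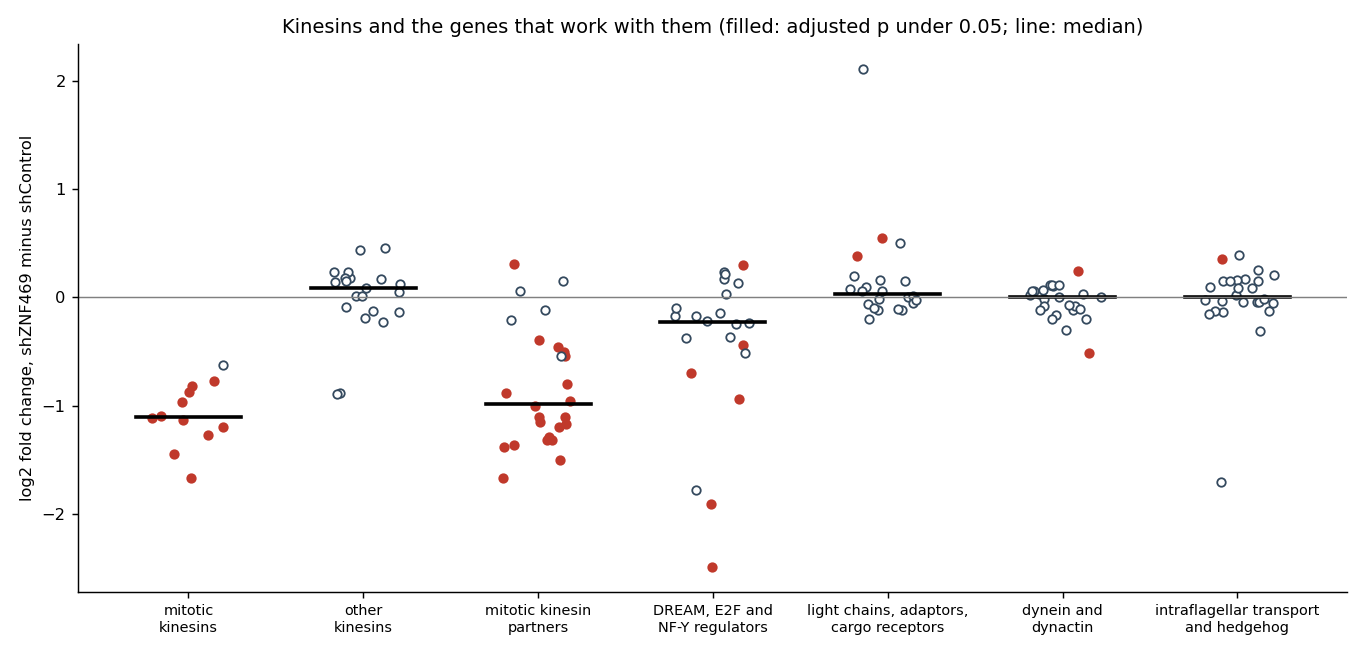
Log2 fold change (y axis, shZNF469 minus shControl) of the kinesins and of 5 lists of genes that work with them, 1 point a gene with its horizontal place spread at random, filled red where the adjusted p is under 0.05, and the median as a line. KIF21A, and E2F2, which is listed at 0 in 1 group, are left out. The medians of the mitotic kinesins (-1.10) and their partners (-0.98) lie well below 0, and those of the other kinesins without KIF21A (0.09) and of the dynein list (0.00) lie near it.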

How the data were processed

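RNA from 6 fibroblast libraries had been sequenced, and HISAT2 and StringTie are named by the submitters' processing notes with the build GRCh38.p14. Their versions, the annotation release and the strand setting are not stated in the labels or notes. Whole-number counts per gene were deposited by the authors, unscaled per the file headers and values. TPM (levels scaled for gene length and library total) were also deposited by the authors. All 21151 rows were fitted in edgeR 4.0.16 (R 4.3.3) with TMM scaling, filterByExpr (minimum count 10) and the quasi-likelihood F-test, two-sided, p-values adjusted by Benjamini-Hochberg over all 16353 tested genes and a threshold of 0.05. The SE of a log2 fold change was derived from that test, as the absolute change divided by the square root of the F statistic. Of the rows, 4195 carry no symbol and were kept in the fit, and 58 symbols occur more than once. Alternatives were DESeq2 1.42.0, RLE and upper-quartile scaling, no filter on low counts, limma 3.58.1 on log2(TPM + 1) and log2(TPM + 0.1), the replicate number as a block, and each library left out. The edgeR code was tested on simulated counts.

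All 12 mitotic kinesins and every other member are given values, CENPE stands beside them, and of each partner list the 4 genes with the lowest p are named; any other gene is said to be named after its values were seen. The members, the lists and the division into mitotic and other kinesins were chosen with earlier results of these data known. Ratios within libraries were tested with an exact permutation test (scipy 1.17.1), two-sided. Promoter windows were matched by symbol to RefSeq (GRCh38.p14), and exon overlaps were taken from GENCODE. Library depths of 35417366 to 48298264 counts set the counting precision. Libraries of a group differed by more than counting noise alone gives. The chi-square per degree of freedom between them was 8.71 to 16.9 in shControl and 16.96 to 36.6 in shZNF469. The source of this spread was not tested. No library was dropped.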

Additional observations from a re-analysis of the deposited data

How the results depend on the processing

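Of 156 values recomputed for single mitotic kinesins (12 genes under 13 alternatives), 146 kept their direction and side of the threshold, 8 lost the call, 2 gained it and 0 reversed. Of 286 values for the other kinesins, 11 gained a call, all with DESeq2 or a library left out, and 10 reversed, none of them past the threshold: KIF1C with limma (-0.0152 and -0.0154 on log2(TPM + 1) and log2(TPM + 0.1)) and with a library left out (range -0.0444 to 0.0407), KIF2A with limma (-0.0453 and -0.0481) and with a library left out (-0.0747 to 0.0627), and, with a library left out, KIF9 (-0.554 to 0.198), KIF5A (-0.0540 to 0.287) and KIF3A (-0.0237 to 0.212). The mitotic median was -0.83 with limma on log2(TPM + 1), a scale that understates changes of low genes. DESeq2 gave 1642 lower and 1638 higher genes in all, limma 526 lower and 233 higher on log2(TPM + 1), 462 and 191 on log2(TPM + 0.1), and an unadjusted p under 0.05, added after the data were seen, 2017 and 1984. Other kinesins had 2 lower and 6 higher with DESeq2 and at the unadjusted p. With DESeq2, dynein genes had 3 lower, ciliary genes 3 higher and light chains 4 higher. With limma on both TPM scales, the higher counts of partners, dynein, ciliary and DREAM genes were 0, and the last was 0 without a filter and under the replicate block too. At the unadjusted p there were 10 lower and 2 higher DREAM genes, 3 lower dynein genes, 1 lower and 6 higher ciliary genes, 4 higher light chain genes and 2 higher partners. The causes were not tested.

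With each library left out in turn, 333 to 854 genes were lower and 204 to 769 higher in all (333 and 215 without shControl replicate 1, 397 and 332 without 2, 405 and 267 without 3, 388 and 204 without shZNF469 replicate 1, and 625 and 496 without 3), 8 to 12 mitotic kinesins were lower and 0 higher, and their median ran from -1.14 to -1.04. Other kinesins had 0 lower and 0 to 2 higher (median 0.0337 to 0.15). Partners had 17 to 20 lower and 0 to 1 higher, DREAM genes 3 to 7 and 0 to 1, dynein genes 0 to 1 each, ciliary genes 0 and 0 to 1, and light chains 0 and 1 to 3. Log2 ratio differences ran from -1.65 to -1.44 (KIFC1), -1.51 to -1.06 (KIF14), -1.22 to -0.99 (KIF2C), -1.26 to -0.96 (KIF4A), -1.02 to -0.53 (KIF18B) and -0.43 to -0.24 (KIF20A). Same-numbered libraries of the groups deviated with correlations of -0.02, 0.08 and 0.03 across genes, and not every library correlated best with its own number. Deviations from a mean of 3 libraries are tied to each other, so these correlations cannot show whether the libraries were prepared as pairs. With the replicate block 736 genes were lower and 592 higher, 11 mitotic and 0 other kinesins were lower, and 20 partners were lower. The lowest counts behind a kinesin estimate were those of KIF6, KIF9, KIF21A and KIF24; how far depth limits them was not tested.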
